A study of Oryzias latipes and Danio rerio with 6 samples.

Results

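The regions described here were marked by zebrafish Taz and not by Yap1, away from chromosome ends. Taz (encoded by wwtr1) and Yap1 are paralogous co-activators of the Hippo pathway, in which a kinase cascade phosphorylates both proteins and keeps them in the cytoplasm, while the unphosphorylated forms enter the nucleus. Neither binds DNA by itself, and both reach chromatin mainly through TEAD transcription factors, so a list that separates them shows places where only 1 of the paralogues was called. In the vertebrate embryo the pathway is best known for the control of growth, of tissue shape and of early lineage choice.

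Wild-type zebrafish embryos received mRNA for Dam-Taz, Dam-Yap1 or Dam-GFP by injection, and DNA of whole embryos was collected at 80% epiboly, a late gastrula stage. Dam is a bacterial methylase that marks the A of GATC sites near the protein it is fused to, and Dam-GFP records where untethered Dam reaches. Each of the 3 zebrafish groups was 1 sample, for which the labels state 3 replicates of 40 embryos and 25 cycles of PCR. The region lists carry no values per replicate and no read counts, so depth was unknown and no test between samples was possible. All intervals below are 95% intervals that cover the counting of regions only. The fusion proteins came from injected mRNA rather than from the embryo's own genes, and whole embryos mix all cell types of the stage.

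Members were selected on the positive calls of both factors: they were the Taz positive regions that shared no base with any Yap1 positive region, on chromosomes 1 to 25, with a midpoint more than 1 Mb from both ends, without the part of chromosome 4 from 25 Mb on. The absence of Yap1 is a property of the choice and not a finding. Of 8608 Taz positive regions, 6430 (74.7%) had no Yap1 overlap. Of those, 379 lay on unplaced sequences, 1772 within 1 Mb of an end and 302 on the chromosome 4 long arm, which left 3977 members. They made up 72.4% of the 5491 inner Taz regions, and the other 1514 overlapped Yap1 and serve as the nearest comparison. Further comparison sets were the 4761 inner Yap1 regions without Taz (75.7% of inner Yap1 regions) and the 10100 inner regions of the Taz control list, which was deposited under Dam-GFP and whose name pairs it with Taz. The 4 zebrafish lists held 35724 regions, and the whole series 52712. Yap1 and Taz were both set against the same Dam-GFP sample. Positions are on GRCz10.

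Along the chromosomes, Taz-only regions thinned out from the ends inward. The density of each of the 3 comparison sets was lower at 1 to 2 Mb than beyond 20 Mb. For shared Taz and control regions the intervals of these bands overlap. Between 1 and 2 Mb from an end there were 559 members in 49 Mb, or 11.4 per Mb (exact Poisson interval 10.5 to 12.4). The density was 6.20 per Mb (5.53 to 6.94) at 2 to 3 Mb and 4.39 per Mb (3.98 to 4.82) at 3 to 5 Mb. It was 3.22 per Mb (3.0 to 3.45) at 5 to 10 Mb, 2.49 per Mb (2.35 to 2.64) at 10 to 20 Mb and 2.19 per Mb (2.03 to 2.36) farther inside. The outermost and innermost of these bands differed 5.22-fold. With members within 10 kb of each other counted once, they differed 4.43-fold.

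Taz regions shared with Yap1 stood at 1.29 per Mb (0.988 to 1.64) in the band from 1 to 2 Mb and at 1.52 per Mb (1.39 to 1.66) beyond 20 Mb. Yap1-only regions stood at 3.84 per Mb (3.31 to 4.43) and 4.97 per Mb (4.72 to 5.22) in the same bands. They were sparsest in between, with 2.51 per Mb (2.21 to 2.84) at 3 to 5 Mb. In narrower bands, both sets also thinned inward over a short range, unevenly. Shared Taz regions went from 1.80 per Mb at 1 to 1.25 Mb to 0.735 per Mb at 2.5 to 3 Mb. Yap1-only regions went from 5.39 per Mb at 1 to 1.25 Mb to 2.41 per Mb at 3 to 4 Mb. The Taz control list had 7.18 per Mb (6.45 to 7.97) and 7.99 per Mb (7.68 to 8.31). Of all members, 1293 (32.5%, Wilson interval 31.1 to 34.0) lay between 1 and 5 Mb from an end, a band that makes up 15.8% of the inner length. The share there was 14.4% (12.7 to 16.3) for shared Taz, 12.8% (11.9 to 13.8) for Yap1-only and 16.6% (15.9 to 17.3) for control regions. The ratio of the outer to the inner band was thus 0.845 for shared Taz regions, 0.773 for Yap1-only regions and 0.899 for control regions, all below 1. Members outnumbered Yap1-only regions 2.97 to 1 at 1 to 2 Mb, came to 0.966 for each Yap1-only region at 5 to 10 Mb and to 0.440 beyond 20 Mb. They made up 89.9% (Wilson interval 87.3 to 92.0) of the 622 Taz regions at 1 to 2 Mb and 59.0% (56.1 to 61.8) of the 1158 Taz regions beyond 20 Mb.

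**Figure D1:**
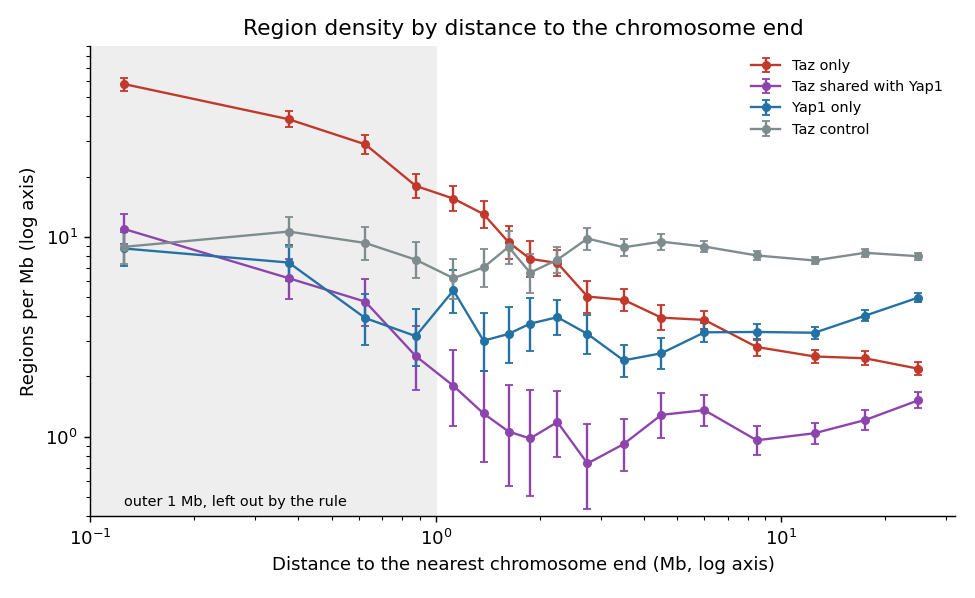
Regions per Mb (log axis) against distance to the nearest chromosome end in Mb (log axis) for Taz-only, shared Taz, Yap1-only and Taz control regions; bars are exact Poisson 95% intervals, the last point stands for all positions beyond 20 Mb, and the grey area is the outer 1 Mb that holds no members. The Taz-only line goes from 15.5 per Mb just inside 1 Mb to 2.19 per Mb in the interior and crosses the Yap1-only line, while the control line stays between 6.20 and 9.80 per Mb inside 1 Mb.

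On either side of the 1 Mb border the density was of similar size. Taz-only regions stood at 17.96 per Mb (15.7 to 20.5) at 0.75 to 1 Mb, outside the border, and at 15.5 per Mb (13.4 to 17.9) at 1 to 1.25 Mb, inside it. In the outermost 0.25 Mb, where no member lies, the density of Taz-only regions was 58.0 per Mb. There the other positive sets were also denser than beyond 20 Mb, with 10.9 per Mb for shared Taz regions against 1.52 and 8.73 per Mb for Yap1-only regions against 4.97, while control regions stood at 8.90 against 7.99. The 3 members nearest to the border lay at chr13:50776575-50777300 (score 115), chr7:1002035-1002597 (score 384) and chr14:50941074-50941801 (score 157). Just outside it lay Taz-only regions at chr14:50944420-50947035 (score 223), chr15:46776727-46777031 (score 92) and chr11:44115302-44116214 (score 114). On chromosome 4 the last member (24901666 to 24903249, score 152) was followed by a first Taz-only region past the limit at 25079502 to 25080896 (score 71).

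The gradient was seen at nearly every chromosome end. At 48 of 49 ends the density of members 1 to 3 Mb from the end was above that of the same chromosome farther than 5 Mb inside, and at 43 of them by more than 2-fold. The exception was the start of chromosome 15, with 5 members in 2 Mb against 2.59 per Mb inside. The same comparison held at 17 of 49 ends for shared Taz regions, at 20 for Yap1-only regions and at 17 for control regions. The ends of a chromosome share the same inner value, and all ends come from the same libraries, so they are not replicates.

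Ends differed among themselves in how many members they held. The band from 1 to 3 Mb held between 5 and 31 members, with a median of 16 over the 49 ends. The highest count, 31, was found at the start of chromosomes 3 and 16 and at the end of chromosomes 6 and 15. Both ends of a chromosome could be far apart, as on chromosome 15 with 5 and 31 members, chromosome 3 with 31 and 7, and chromosome 2 with 6 and 28. The count in the band did not follow the count in the outer 1 Mb at each end. The start of chromosome 3 had 11 Taz-only regions in the outer 1 Mb and 31 in the band, whereas the end of chromosome 18 had 68 and 13. For Yap1-only regions the band held a median of 6, and its highest count, 39, was at the start of chromosome 22, where 14 members lay.

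The median score of the members varied little along this gradient, while their median length fell inward in wide bands, though not steadily in narrower ones. The score is a whole number that the authors gave each region and whose quantity is not stated, and here it ranks regions within the Taz list only. The median score of members was 102 at 1 to 2 Mb, 105 at 2 to 3 Mb, 108 at 3 to 5 Mb, 102 at 5 to 10 Mb, 97.5 at 10 to 20 Mb and 98 farther inside. The median length was 1043 bp at 1 to 2 Mb, 1004 bp at 2 to 3 Mb and 980.5 bp at 3 to 5 Mb. It was 917 bp at 5 to 10 Mb, 842.5 bp at 10 to 20 Mb and 922 bp farther inside. In narrower bands the median length rose and fell. It was 966 bp at 1.5 to 1.75 Mb and 1220 bp at 1.75 to 2 Mb. At 3 to 4 Mb it was 887 bp, and at 4 to 5 Mb 1099 bp. Members in the outer band lay closer together: 39.9% (35.9 to 44.0) of those at 1 to 2 Mb had another Taz-only region within 10 kb, against 15.3% (13.4 to 17.5) at 10 to 20 Mb. A higher density by itself raises this share, and whether nearness went beyond density was not tested. When members within 10 kb of each other were counted once, the density of separate places was 8.82 per Mb at 1 to 2 Mb and 1.99 per Mb beyond 20 Mb, a ratio of 4.43.

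By chromosome, the members were spread rather evenly. Their density averaged 3.19 ± 0.394 per Mb (SD over 25 chromosomes), from 2.04 per Mb (1.51 to 2.70) on the analysed part of chromosome 4 to 4.11 per Mb (3.54 to 4.75) on chromosome 23. Yap1-only regions averaged 3.86 ± 0.451 per Mb and shared Taz regions 1.22 ± 0.227 per Mb. Chromosome 4, with 49 members in 24 Mb, had the lowest density of members and, at 4.75 per Mb, the highest density of Yap1-only regions. Members outnumbered Yap1-only regions on 3 chromosomes, namely 1, 16 and 24. Farther than 5 Mb from the ends, chromosome 23 was again the densest in members, at 3.34 per Mb, and chromosome 4 the lowest, at 1.80 per Mb. The share of inner Taz regions without Yap1 ran from 56.98% on chromosome 4 to 78.0%, reached on chromosome 11, with a median of 73.2%.

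**Figure D2:**
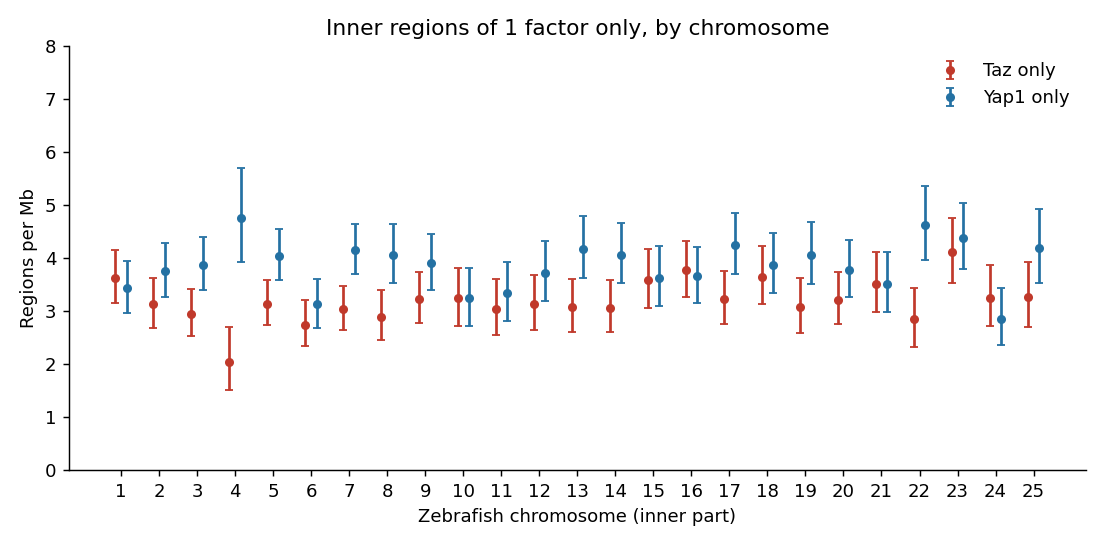
Inner regions per Mb on each of the 25 zebrafish chromosomes for Taz-only and Yap1-only regions; bars are exact Poisson 95% intervals, and chromosome 4 stands for its part before 25 Mb. Taz-only points lie between 2.04 and 4.11 per Mb, and chromosome 4 shows the widest separation, with 2.04 for Taz only and 4.75 for Yap1 only.

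A few exact lengths recurred among the members, each on many chromosomes. The most frequent length, 610 bp, was found in 75 members (1.89%, Wilson interval 1.51 to 2.36), while the 20 neighbouring lengths had a median of 2 members and at most 6. A length of 282 bp was found in 43 members, 402 bp in 27 and 943 bp in 26. The 20 neighbouring lengths had a median of 5 members and at most 15 for 282 bp, the 15 being at 281 bp. For 402 bp the median was 2 and the maximum 6, and for 943 bp they were 3 and 7. The 610 bp members lay on 22 chromosomes with at most 10 on any of them, the 282 bp members on 21, the 402 bp members on 16 and the 943 bp members on 19.

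The comparison sets had few regions of these lengths. Together the 4 lengths accounted for 171 of 3977 members (4.30%, 3.71 to 4.98), 14 of 1514 shared Taz regions (0.925%, 0.552 to 1.55) and 21 of 4761 Yap1-only regions (0.441%, 0.289 to 0.673). In the Taz control list they accounted for 27 of 10100 regions (0.267%, 0.184 to 0.389). Of the 76 inner Taz regions of 610 bp, 75 had no Yap1 overlap and 1 overlapped Yap1, while 72.4% of all inner Taz regions had no Yap1 overlap. Of Yap1-only regions 5 had this length. Among shared Taz regions, 282 and 402 bp were found in 6 regions each, the highest count (0.396%, 0.182 to 0.862). These intervals overlap those of the members, 1.08% (0.804 to 1.45) for 282 bp and 0.679% (0.467 to 0.986) for 402 bp. The most frequent length of the Yap1-only regions was 238 bp, with 15 regions, and that of the Taz control list was 809 bp, with 58. It was also 809 bp in the inner Yap1 control list, likewise deposited under Dam-GFP, with 83 of 7629 regions. A recurring exact length is thus not particular to the members. The 4 lengths of 610, 282, 402 and 943 bp were picked after the values had been seen, as the most frequent among the members. Their higher share among members than in the other sets is thus partly set by that choice, which the intervals do not allow for.

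The 610 bp members had low scores within a narrow range, from 67 to 130 with a median of 82, and the 943 bp members ran from 67 to 131 with a median of 82.5. The 402 bp members ran from 69 to 149 with a median of 91. The 282 bp members reached higher, from 67 to 331 with a median of 123, and 14 of the 43 were above 150. Between 1 and 5 Mb from an end lay 18.7% (11.5 to 28.9) of the 610 bp members and 16.3% (8.12 to 29.97) of the 282 bp members, against the 32.5% of all members given above, whose interval lies higher. The shares were 22.2% (10.6 to 40.8) for the 402 bp and 15.4% (6.15 to 33.5) for the 943 bp members, with intervals that reach that of all members. The 610 bp members rarely had another Taz region close by, with 1 of 75 within 1 kb of one, whereas 10 of 43 members of 282 bp had such a neighbour. Over all 3977 members, 458 (11.5%, 10.6 to 12.5) had one. The 610 bp members of highest score lay at chr15:43759840-43760449 (score 130), chr14:17099773-17100382 (score 123) and chr17:14540272-14540881 (score 118). No zebrafish genome was used here, so the sequence of these regions was not read.

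**Figure D3:**
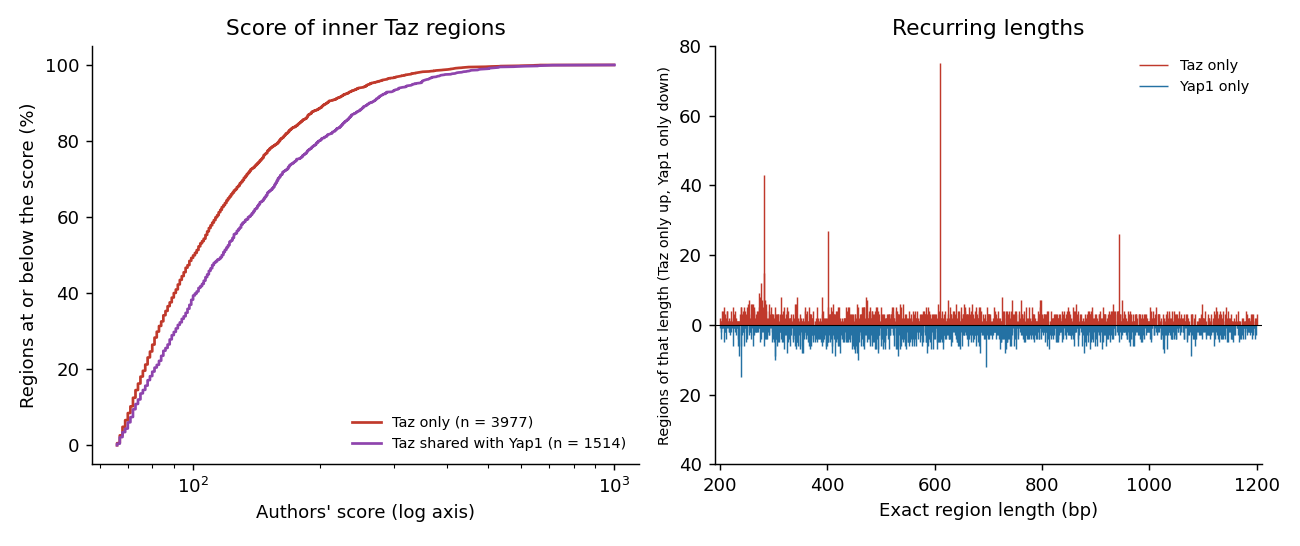
Left, the percentage of inner Taz regions at or below each score (log axis) for the 3977 Taz-only and the 1514 shared regions; right, the number of regions at each exact length in bp, with Taz-only regions drawn upward and Yap1-only regions downward. The Taz-only curve lies to the left of the shared curve, with medians of 101 and 117.5, and the spikes of Taz-only regions stand at 282, 402, 610 and 943 bp.

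The scores of the members ran from 66, the lowest of the Taz list, to 996, while the highest score of that list, 1000, belonged to a region shared with Yap1. Their median was 101, with 10% at or below 71 and 10% at or above 208, and 132 of 3977 members (3.32%) were above 300. Shared Taz regions had a median of 117.5 and their upper 10% began at 262. These values come from the contrast that chose the regions and are given as a description. In 4 equal score classes of the inner Taz regions, the share without Yap1 was 78.4% in the lowest, 75.5% and 72.3% in the middle classes and 63.5% in the highest. Among the 100 inner Taz regions of highest score, 56 (56.0%, 46.2 to 65.3) had no Yap1 overlap, below the 72.4% over all inner Taz regions.

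The highest-scored member lay at chr16:50730630-50732913 (score 996), and its nearest Yap1 region was 375 kb away. The next was at chr8:9533177-9535423 (score 665), where a Yap1 region began 4 bp beyond its end. The members at chr13:17217601-17218545 and chr5:44409220-44410165 followed with a score of 663 each, then chr7:22127066-22127808 (score 645) and chr2:57966772-57967439 (score 643). The remaining members of the 10 highest were at chr17:50371556-50375145 (score 624), chr6:5485407-5487536 (score 621), chr19:46870682-46871901 (score 599) and chr23:17745720-17747585 (score 594). Of these 10 members, those on chromosomes 8 and 23 had a Yap1 region within 10 kb. Genes at these places are not named, since no annotation of this build was used here.

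Members had a median length of 928 bp, with quartiles of 539 and 1542 bp, and covered 4589 kb in all. Shared Taz regions had a median of 1040.5 bp, Yap1-only regions 912 bp and Taz control regions 803 bp. Regions under 300 bp made up 9.08% (8.22 to 10.01) of the members, 6.94% (5.76 to 8.33) of the shared Taz regions, 4.87% (4.30 to 5.52) of the Yap1-only regions and 0.822% (0.663 to 1.02) of the Taz control regions. Whether length played a part in which Taz regions met Yap1 was not tested. The longest members were at chr23:1340429-1347970 (7542 bp, score 77), chr14:1444787-1451638 (6852 bp, score 145), chr6:35655130-35661691 (6562 bp, score 99), chr17:1340416-1346907 (6492 bp, score 82) and chr11:25902117-25908354 (6238 bp, score 150). All 5 had scores of at most 150, and 3 of them lay within 2 Mb of an end.

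Most members stood alone, and a minority formed clusters. With members joined at gaps of up to 10 kb, 3103 (78.0%) stood alone and 874 (22.0%, 20.7 to 23.3) fell into 389 clusters of 2 or more. Of these, 70 clusters held 3 or more members, and 40 of the 70 (57.1%) lay within 5 Mb of an end. Of all 3492 separate places, single members included, 30.5% lay there. Members were denser in that band, and a higher density by itself joins more of them. The share with a neighbour of the same set was 21.6% (19.6 to 23.7) for shared Taz regions, 24.3% (23.1 to 25.5) for Yap1-only regions and 22.4% (21.6 to 23.2) for control regions, although these sets differ in size. The largest clusters had 7 members each, at chr14:50866191-50900191 (scores 73 to 125) and chr18:5689494-5713130 (scores 79 to 216). The chromosome 14 cluster also held 2 regions of the Yap1 control list, and the chromosome 18 cluster held none. Those control regions overlapped the members at chr14:50866191-50869760 and chr14:50895668-50896196. Next came clusters of 6 at chr18:5640512-5669646, of 5 at chr16:1249601-1268973 and of 4 at chr18:5519851-5533654, the last being the longest in covered sequence among the 13 clusters of 4. The spans of the chromosome 18 cluster of 7 and of the clusters of 6 and 5 each also held 1 Yap1 positive region. The chromosome 14 cluster and this cluster of 4 held none.

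Some stretches held members in sequence. Sorted by midpoint among the regions of all 4 lists, 46 runs of 5 or more consecutive members were found, and 6 runs of 8 or more. The longest run had 13 members over 538 kb at chr16:53788874-54327024 (scores 67 to 404), reaching to 1.04 Mb from the end. The next had 11 members over 375 kb at chr12:1019851-1395041, and runs of 9 followed at chr2:57966772-58131360 and chr11:44036318-44100197. Each of these 4 runs reached to within 1.38 Mb of an end. A run of 8 members over 61.1 kb at chr18:5472575-5533654 lay 5.47 Mb from the end.

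The densest place was a single 1 Mb window of chromosome 18 that begins 5 Mb from the start of the chromosome. Over 1228 windows of 1 Mb that lie fully in the inner part, the median was 2 members. Of these windows, 123 (10.02%) had none and 34 had 10 or more. Of the 34, 22 had their nearer edge less than 2 Mb from an end. Chromosome 18 from 5000001 to 6000000 held 31 members, together with 9 shared Taz, 7 Yap1-only and 10 Taz control regions. Over the whole inner part, the averages per Mb were 3.21 members, 1.22 shared Taz, 3.84 Yap1-only and 8.15 Taz control regions. Each of these sets was thus above its average in this window, shared Taz regions among them. The Yap1 control list was below its own, with 4 regions against an inner average of 6.16 per Mb. The members in this window had scores from 71 to 216 with a median of 103, and a median length of 1671 bp against 928 bp over all members. The other windows among the 5 densest all began 1 Mb from a chromosome start, on chromosome 17 (25 members), chromosome 16 (22), chromosome 3 (21) and chromosome 18 (19). These windows were named after their counts had been seen.

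**Figure D4:**
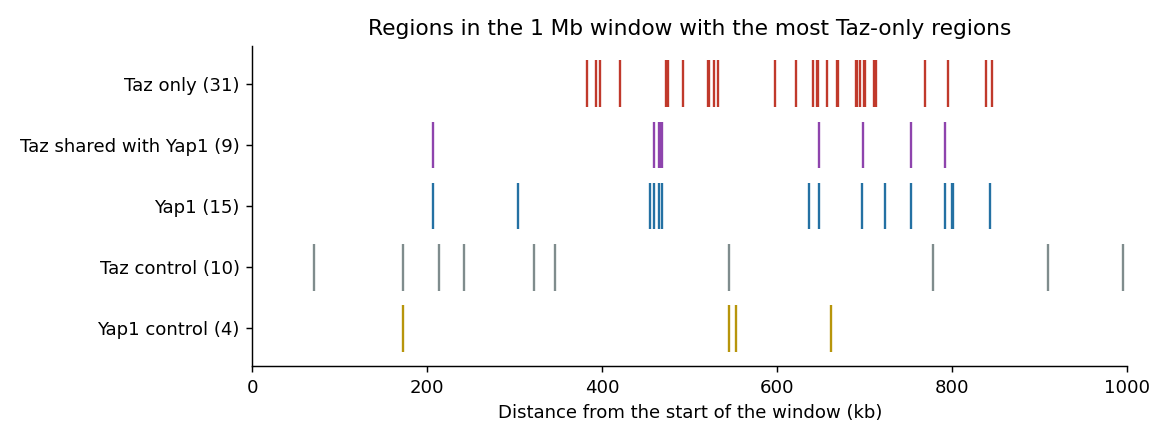
Midpoints of the regions of each set in the 1 Mb window of chromosome 18 with the most Taz-only regions, against the distance from the start of the window in kb, with the number of regions of each set in parentheses. The 31 Taz-only regions fall in the middle and right parts of the window, while the 10 Taz control regions lie mostly to their left.

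Far from the ends, an adjoining pair of windows of chromosome 1 also held many members. The window from 25000001 to 26000000 held 15 members and no shared Taz region, with 2 Yap1-only, 12 Taz control and 11 Yap1 control regions. The window from 26000001 to 27000000 held 17 members and 3 shared Taz regions, with 6 Yap1-only, 12 Taz control and 12 Yap1 control regions. Both windows were thus also above the inner averages of control regions, 8.15 per Mb for Taz control and 6.16 per Mb for Yap1 control. Only 4 windows at least 5 Mb from an end had 10 or more members, and the remaining one, on chromosome 2 from 43000001 to 44000000, had 10.

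Members and Taz control regions had similar median distances to Yap1, while the share within 10 kb was higher for members. The rule had removed every Taz region that overlapped Yap1, and control regions had no such cut. The distances of members are thus shaped by the choice and are given as a description. The nearest Yap1 positive region was at a median of 86.0 kb from a member and 85.1 kb from an inner Taz control region. Of the members, 1786 of 3977 (44.9%, 43.4 to 46.5) had none within 100 kb. Within 10 kb there was a Yap1 region for 469 members (11.8%, 10.8 to 12.8), against 9.25% (8.70 to 9.83) of the inner Taz control regions. Another Taz positive region lay within 10 kb of 1015 members (25.5%, 24.2 to 26.9), 226 of them at a gap of exactly 4 bp. The share was higher for the shared Taz regions, 472 of 1514 (31.2%, 28.9 to 33.6), with 125 at 4 bp. Nearness to another Taz region is thus not particular to the members. The rule made no cut against other Taz regions, so the members' share near Taz and their share near Yap1 are not alike. The members farthest from Yap1 followed each other on chromosome 25, at 10250135 to 10250830, 10548423 to 10549007, 10767191 to 10767793 and 11004831 to 11005447, with gaps of 1269, 1567, 1612 and 1374 kb and scores of 83, 71, 81 and 67. The fifth, at chr7:4065817-4066688 (score 99), had a gap of 1134 kb.

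**Figure D5:**
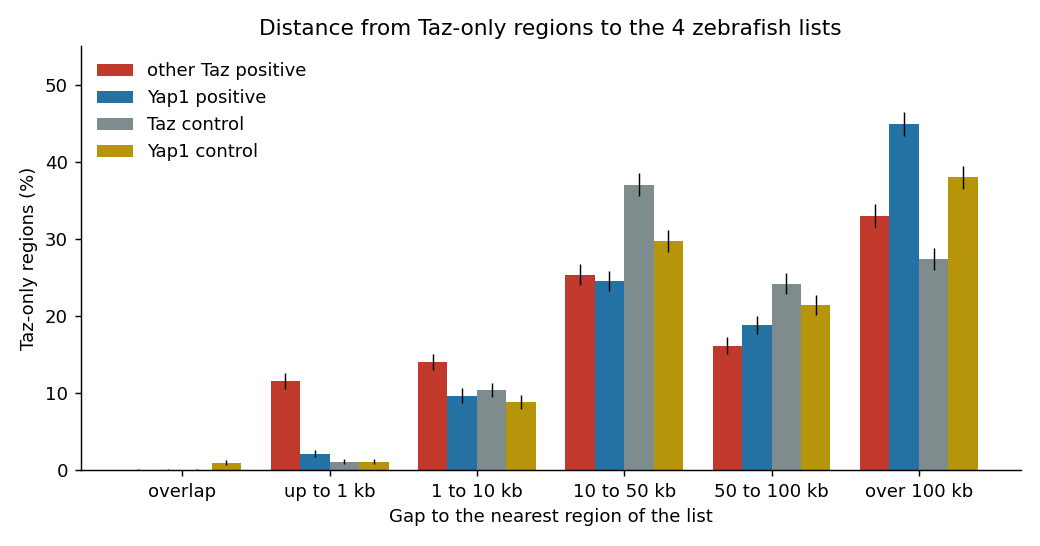
Percentage of the 3977 Taz-only regions by the gap to the nearest other Taz positive, Yap1 positive, Taz control and Yap1 control region; bars carry Wilson 95% intervals, and overlap with the Yap1 positive list is 0 by the rule. Up to 1 kb away, 11.5% had another Taz region and 2.14% a Yap1 region, and 44.9% had no Yap1 region within 100 kb.

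The borders of the rule on the Yap1 side show how the lists are built. No member had a Yap1 region at a gap of 1 to 3 bp, 27 had one at exactly 4 bp, and the next larger gap was 10 bp. The same gap of 4 bp, the length of a GATC site, separated 226 members from another Taz region. Whether these 4 bp are a GATC site was not read from a genome. Member scores in the pairs ran from 67 to 665 with a median of 109 in the Taz list, and Yap1 scores from 58 to 235 with a median of 105 in the Yap1 list. The 3 of highest Taz score were on chromosome 8 (the region of score 665 named above, Yap1 score 58), chr12:6577345-6577840 (score 424, Yap1 score 58) and chr20:52624697-52625876 (score 250, Yap1 score 114). For the members on chromosomes 12 and 20, a shared Taz region overlapped that Yap1 region and also ended or began 4 bp from the member. Taz was thus called on both sides of the 4 bp there. The chromosome 8 member had its nearest other Taz region 61850 bp away. Among the other pairs, some members had another Taz region at 4 bp and some did not. On the other side of the border, the smallest overlaps were 200 bp at chr21:36373274-36374643, 201 bp at chr1:53342896-53343944 and 202 bp at chr7:73047424-73047625. No inner Taz region overlapped Yap1 by fewer bases.

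A few members were also listed as Dam-GFP control regions of the Yap1 comparison. In 39 of 3977 members (0.981%, 0.718 to 1.34) the region overlapped the Yap1 control list. Shared Taz regions had none, which the choice of sets nearly fixes, because they lie on Yap1 positive regions. The 0.71% over all inner Taz positive regions counts the same 39 regions over a larger number and is no comparison. Both comparisons used the same Dam-GFP sample. The edges were identical in 11 of the 39. The Taz scores of these members ran from 66 to 269 with a median of 110. The highest was at chr21:36494669-36496099 (score 269), followed by chr25:3813903-3815359 (score 212) and chr22:35361657-35362444 (score 206), where the Yap1 control scores were 77, 66 and 58. These 3 regions were named after their values had been seen.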

How the data were processed

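The build and tools named in the submitters' processing notes are GRCz10 (danRer10), bedtools, Bowtie2, cutadapt and SAMtools, without versions. Not given in the sources used here are the region caller, its thresholds and the treatment of the replicates. The deposited lists give each region's position and a whole-number score made by the authors, used here only to rank or filter regions within a list. The positive and control list of a factor share their lowest score, 66 for Taz and 57 for Yap1. Medaka lists were counted and not analysed further.

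Regions were compared with Python 3.11.15, pandas 2.3.3, NumPy 2.4.6 and SciPy 1.17.1, and figures drawn with Matplotlib 3.10.9. Overlap meant at least 1 shared bp. The largest region end in the 4 zebrafish lists stood for each chromosome's length, a lower bound. Shares carry Wilson and densities exact Poisson intervals. With 1 sample per group no test was made. The interval functions were tested on simulated data.

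The members, sets and measures were chosen with earlier results of these data known. Named regions are the 10 of highest score, the 5 longest, the 5 largest clusters, the 5 farthest from Yap1 and the 3 on each side of a border. Exceptions are marked. Motifs and gene starts were planned but not analysed, since no zebrafish genome or annotation was used.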

Additional observations from a re-analysis of the deposited data

How the results depend on the processing

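Under the alternatives tried, 24 of 42 values stayed within their counting interval, within 1.5 times the main count or within 1 SD of the main median, and 18 moved. The share of inner Taz regions without Yap1, 72.4% as reported, became 75.7% when a shared region had to be covered to 50%, 70.9% and 63.9% when Yap1 within 1 or 10 kb counted as shared, 70.2% with ends of 2 Mb and 67.9% above the median score, where 1817 members were left. The share of members within 10 kb of another, 22.0%, became 19.1% with ends of 2 Mb, 15.1% above the median score, 20.4% from 300 bp on, 16.5% and 43.6% with gaps of 5 and 50 kb, and 20.7% without the 5 densest windows. The share near Yap1, 11.8%, became 13.2% from 300 bp on and 7.07% and 36.3% with gaps of 5 and 50 kb. The share in the Yap1 control list, 0.981%, became 0.679% when 50% of the member had to be covered. The share between 1 and 5 Mb from an end, 32.5%, became 34.6% above the median score and 30.5% with neighbours counted once, and it was 31.3% without the 5 densest windows and 33.2% without the 4 recurring lengths. Leaving out these windows or lengths was chosen after seeing the data. Fewer regions or a wider gap change nearness by construction. No paired analysis was possible because each group is 1 sample with no values per replicate. Depth is unknown, so a region absent from the Yap1 list is not shown to lack Yap1. The alternatives for motifs and gene starts were not run, since no zebrafish genome was used.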
